A study of Mus musculus with 12 samples.

Results

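Transport and metabolism genes of the renal proximal tubule were followed in kidney RNA of mice with Cre-driven deletion in renal tubules. The deleted gene was fumarate hydratase (Fh1), alone or together with the hypoxia-inducible factor gene Hif1a. The set holds 38 genes listed by symbol, in 7 classes: endocytic receptors, sodium-coupled carriers, other carriers and channels, amino acid carriers, metabolic enzymes, brush border enzymes, and a last class of 4 other genes. Probes carrying these symbols were present for 36 of the 38 genes, 62 probes in all, out of 12344 named genes and 23863 probes in the table. Slc3a1 and Ggt1 had no probe named for them here and are not analysed.

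RNA from 12 C57BL/6 mice aged 15 weeks was hybridised to Illumina bead arrays, 1 array per mouse, with 4 arrays labelled Hif1a/Fh1 KO, 4 labelled Fh1 KO and 4 labelled Control. The Hif1a/Fh1 KO mice carried floxed alleles of both Fh1 and Hif-1α with Ksp-Cre, and the Fh1 KO mice carried floxed Fh1 with Ksp-Cre. The Control mice were littermates that either lacked Ksp-Cre or kept a wild-type allele beside it. The Ksp-cadherin promoter drives Cre in tubular epithelium, so stroma, vessels, glomeruli and unrecombined tubules in the same RNA kept their genes. By the study's staining of mutant kidneys, Fh1 was lost from cysts but remained in interstitium and in some tubules. The share of proximal tubule cells that had lost Fh1 is not given in the sources used here. The source named in the labels is cysts for every array, those of Control mice too, whereas the study describes kidneys.

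The proximal tubule reclaims most of the glucose, phosphate, amino acids, bicarbonate and protein that the glomerulus filters. Its cells take up protein by endocytosis at a brush border, draw solutes in on a sodium gradient, and make glucose from lactate and other precursors. Many of these genes are under the nuclear receptor Hnf4a and the Hnf1 factors, and their transcripts are known to fall when tubular cells are injured or dedifferentiate.

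Values are log2 signals, with the 75th percentile made equal over the arrays, and where a gene had several probes the brightest on average stands for it. A difference of 1 is a doubling of the signal. Differences were tested with limma over all 23863 probes, and a gene was called when its Benjamini-Hochberg adjusted p was under 0.05. Where p-values of single genes are given by an exact permutation test (two-sided, 4 arrays against 4), 0.029 is the smallest value it can give. All p-values measure the spread between these mice, and the number of arrays limits their precision. The second principal component, 18% of the variance, parted replicates 1 and 2 from replicates 3 and 4 in all 3 groups, and these are called the array sets. Xist, which marks female RNA, was high on Hif1a/Fh1 KO 2 and 3, Fh1 KO 1 and 3 and Control 4. In whole-kidney RNA, fewer proximal tubule cells and less RNA per cell cannot be told apart.

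The tissue carried its defining proximal tubule markers, with Lrp2, Slc34a1, Kap and Aqp1 each at a mean signal above 15 over the 12 arrays. Of the targeted genes, Fh1 read 13.76, 13.76, 13.80 and 14.10 on the Hif1a/Fh1 KO arrays, 14.05, 14.24, 13.98 and 14.19 on the Fh1 KO arrays, and 14.23, 14.28, 14.25 and 14.26 on the Control arrays. It was lower in Hif1a/Fh1 KO than in Control (-0.40, limma adjusted p = 0.014) and did not pass in Fh1 KO (-0.14, limma adjusted p = 0.45). The dimmer Fh1 probe gave -0.45 in Hif1a/Fh1 KO (limma adjusted p = 0.0176) and -0.24 in Fh1 KO (limma adjusted p = 0.228). The brighter of 2 Hif1a probes read 10.19, 11.02, 11.04 and 11.01 in Hif1a/Fh1 KO, 10.54, 10.36, 10.16 and 10.20 in Fh1 KO and 9.84, 10.17, 10.31 and 9.54 in Control. It was higher in Hif1a/Fh1 KO than in Control (0.85, limma adjusted p = 0.016). The dimmer Hif1a probe, at a mean of 7.43, lay at percentile 0.13 of all probes by brightness, so its values are near the floor. It differed from Control by -0.19 in Hif1a/Fh1 KO (limma adjusted p = 0.65) and by 0.97 in Fh1 KO (limma adjusted p = 0.0457). On that probe every Hif1a/Fh1 KO array was under every Fh1 KO array, at -1.16 (limma adjusted p = 0.0993). The brighter probe gave 0.50 in that comparison (limma adjusted p = 0.494). Where the probes lie relative to the floxed exons is not given in the sources used here, so the labels were not checked with them.

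Proximal tubule transcripts were lower in both mutant groups, and none was called higher. In Hif1a/Fh1 KO against Control 25 of the 36 measured genes were called lower, with a median difference of -0.70 over the 36. In Fh1 KO against Control 8 of 36 were called lower, with a median of -0.47. Over all 12344 genes 8.64% were called lower and 10.7% higher in Hif1a/Fh1 KO, and 2.26% lower and 3.9% higher in Fh1 KO, with a median difference of -0.03 in each comparison. In each comparison 35 of the 36 measured genes were below 0, the exceptions being Slc17a1 in Hif1a/Fh1 KO (0.03) and Slc13a1 in Fh1 KO (0.18). The highest mutant array lay under the lowest Control array for 18 of 36 genes in Hif1a/Fh1 KO, against 9.78% of all genes, and for 10 of 36 in Fh1 KO, against 8.13% of all genes. The 2 comparisons use the same Control arrays. The count in Hif1a/Fh1 KO was 12 without Control 1, 14 without Hif1a/Fh1 KO 3 and 16 without Hif1a/Fh1 KO 2. Over all 12344 genes 1066 were called lower with every array, and 576, 758 and 603 in these fits. The count in Fh1 KO was 2 without Fh1 KO 1, without Fh1 KO 3 or without Control 1, and 4 without Control 3. Over all 12344 genes 279 were called lower in Fh1 KO with every array, and 79, 71, 70 and 128 in these fits.

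**Figure D1:**
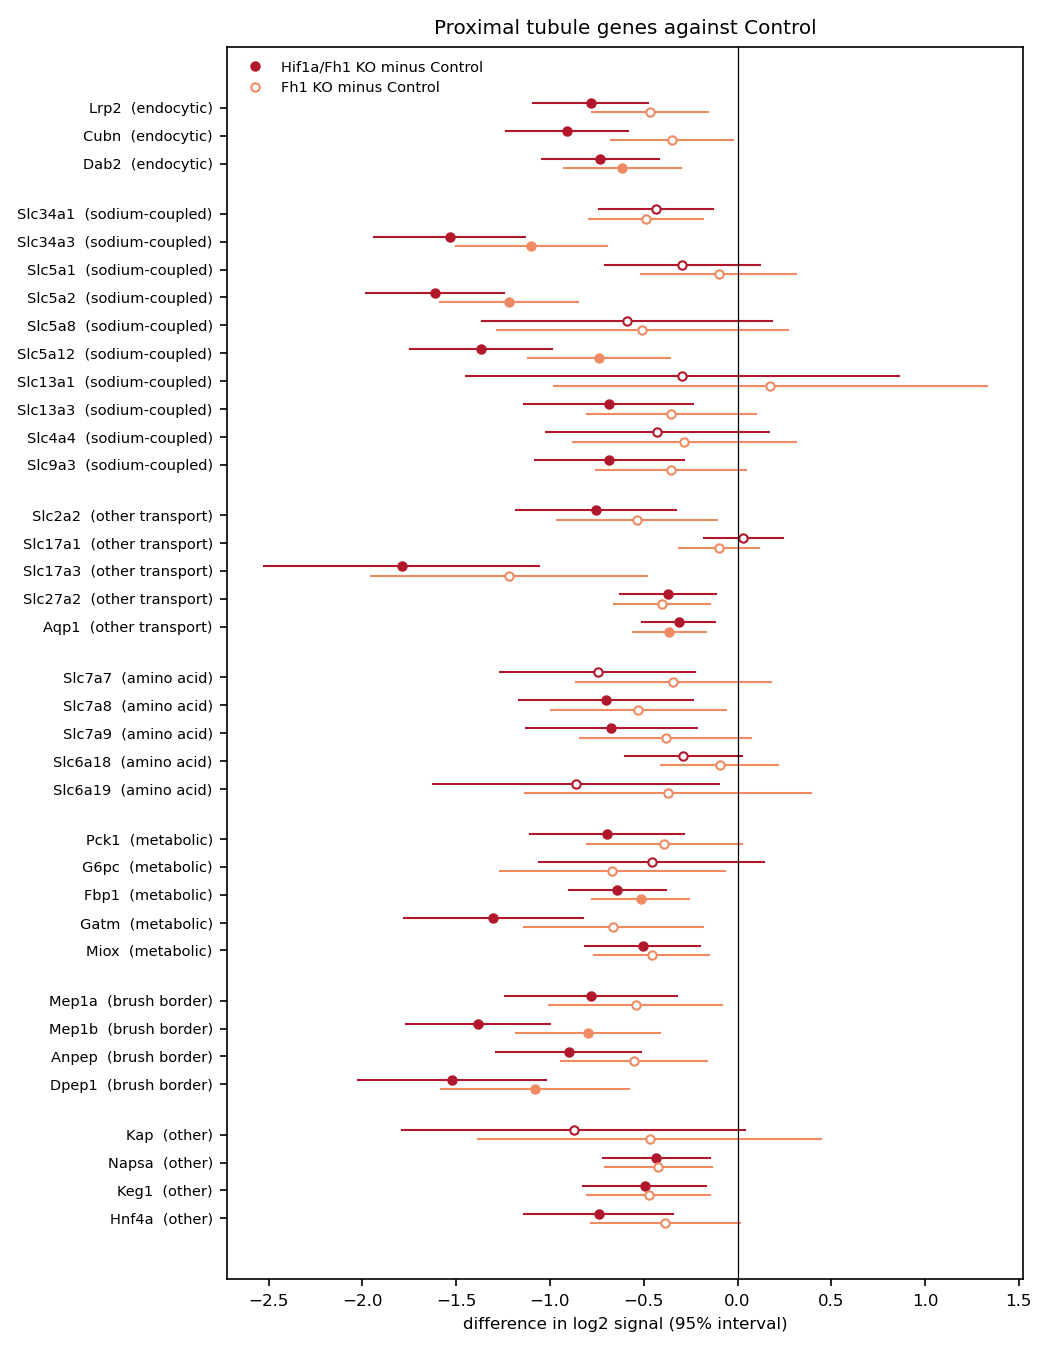
Difference in log2 signal from Control for the 36 measured proximal tubule genes (rows, with their class), for Hif1a/Fh1 KO (dark red) above Fh1 KO (orange). Points are limma estimates over 4 arrays a group, lines are 95% intervals, and filled points passed an adjusted p of 0.05: 25 in Hif1a/Fh1 KO and 8 in Fh1 KO, each left of 0.

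Promoter letters are shown because Hnf4a and Hnf1 factors are known regulators of this set. Windows of 250 bases before to 50 after the start of each gene were taken from RefSeq on GRCm38.p6, which held 30 of the 36 measured genes. Mep1b, Napsa, Slc13a1, Slc5a12, Slc5a2 and Slc6a18 had no entry. On both strands, GTTAAT, a half-site of Hnf1 factors, was in 7 of the 30 windows, against 8.24% of the 27025 genes with a window, and 4 of the 7 genes were called lower in Hif1a/Fh1 KO. AGGTCA, a half-site of nuclear receptors, was in 10 of 30, against 18.1% of all genes, and 6 of the 10 were called. Of all 36 measured genes, with or without a half-site, 25 were called lower there. A link between half-site and call was not tested. The longer spellings CAAAGTCCA and CAAAGGTCA, of which the second contains AGGTCA, were in 0 of 30, against 0.555% and 0.544%. A match is a description of letters and was not tested as a site.

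For each half-site, the 250 bases before the start of the 2 called genes with the smallest adjusted p are printed 5′ to 3′ on the strand of the gene, the half-site in capitals on whichever strand it reads.
Dab2: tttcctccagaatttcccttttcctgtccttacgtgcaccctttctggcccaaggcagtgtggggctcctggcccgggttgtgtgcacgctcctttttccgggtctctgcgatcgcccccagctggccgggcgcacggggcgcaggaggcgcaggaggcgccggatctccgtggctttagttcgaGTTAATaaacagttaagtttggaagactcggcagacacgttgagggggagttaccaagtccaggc
Hnf4a: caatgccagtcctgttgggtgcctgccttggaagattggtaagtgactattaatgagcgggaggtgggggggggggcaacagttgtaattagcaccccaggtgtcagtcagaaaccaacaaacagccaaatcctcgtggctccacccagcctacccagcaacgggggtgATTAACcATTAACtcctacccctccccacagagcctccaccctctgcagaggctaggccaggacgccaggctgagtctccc
Slc34a3: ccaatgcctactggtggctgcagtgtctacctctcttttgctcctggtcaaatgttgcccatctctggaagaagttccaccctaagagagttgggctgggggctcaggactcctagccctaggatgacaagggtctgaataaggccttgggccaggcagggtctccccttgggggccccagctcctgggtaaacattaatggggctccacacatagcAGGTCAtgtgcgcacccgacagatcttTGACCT
Gatm: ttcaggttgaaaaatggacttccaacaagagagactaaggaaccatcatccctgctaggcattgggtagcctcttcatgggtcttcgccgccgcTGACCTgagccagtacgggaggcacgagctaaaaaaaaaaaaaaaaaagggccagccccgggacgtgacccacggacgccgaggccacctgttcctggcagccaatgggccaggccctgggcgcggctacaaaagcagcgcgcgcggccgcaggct
In Dab2, at chr15:6386498-6386747 on the plus strand, the half-site began 65 bases before the start. In Hnf4a, at chr2:163546905-163547154 on the plus strand, 2 copies began 81 and 74 bases before it, both read on the other strand. In Slc34a3, at chr2:25234235-25234484 on the minus strand, copies began 33 and 6 bases before the start in opposite directions. In Gatm, at chr2:122611278-122611527 on the minus strand, 1 copy began 156 bases before it.

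The endocytic apparatus was lower as a whole in Hif1a/Fh1 KO, where 3 of 3 genes were called, against 1 of 3 in Fh1 KO. Lrp2 encodes megalin, the large scavenger receptor for filtered protein. It read 15.38, 15.03, 15.36 and 15.44 in Hif1a/Fh1 KO, 15.40, 15.52, 15.80 and 15.77 in Fh1 KO and 16.05, 15.73, 16.24 and 16.32 in Control. The Hif1a/Fh1 KO arrays lay under every Control array, while Fh1 KO overlapped Control. Its difference was -0.78 ± 0.14 (SE) in Hif1a/Fh1 KO (limma adjusted p = 0.00315) and -0.47 ± 0.14 in Fh1 KO (limma adjusted p = 0.0797, and 0.0174 with the array set as a block). After quantile normalization, which gives every array the same distribution, it was -0.48 in Hif1a/Fh1 KO and -0.11 in Fh1 KO. A second, far dimmer Lrp2 probe gave -0.88 in Hif1a/Fh1 KO (limma adjusted p = 0.016).

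Cubn encodes cubilin, the partner receptor of megalin. Its signals were 12.73, 12.02, 12.23 and 12.43 in Hif1a/Fh1 KO, 12.78, 13.09, 12.83 and 12.94 in Fh1 KO and 13.24, 13.29, 13.01 and 13.50 in Control. The Hif1a/Fh1 KO arrays lay under all arrays of both other groups, and Fh1 KO overlapped Control in 1 array. The difference from Control was -0.91 ± 0.15 in Hif1a/Fh1 KO (limma adjusted p = 0.00175) and -0.35 ± 0.15 in Fh1 KO (limma adjusted p = 0.201). Dab2 encodes the adaptor that links megalin to clathrin coats, and by its brightest probe it was called in both mutants. It read 14.59, 14.31, 14.02 and 14.42 in Hif1a/Fh1 KO, 14.25, 14.68, 14.26 and 14.62 in Fh1 KO and 15.14, 15.28, 14.96 and 14.89 in Control, so neither mutant group overlapped Control. The difference was -0.73 ± 0.14 in Hif1a/Fh1 KO (limma adjusted p = 0.00496) and -0.61 ± 0.14 in Fh1 KO (limma adjusted p = 0.0302). Its 2 dimmer probes were called in Hif1a/Fh1 KO, at -0.76 and -0.79, without overlap of Control. In Fh1 KO they gave -0.49 and -0.47, overlapped Control and were not called (limma adjusted p = 0.0917 and 0.209).

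Sodium-coupled carriers held some of the steepest called falls of the set. Of 10 measured, 5 were called lower in Hif1a/Fh1 KO (median -0.64) and 3 in Fh1 KO (median -0.42). Slc5a2 encodes the main glucose carrier of the early proximal tubule. It read 11.46, 11.42, 11.27 and 11.35 in Hif1a/Fh1 KO, 11.37, 12.22, 11.64 and 11.87 in Fh1 KO and 13.13, 13.09, 12.60 and 13.15 in Control. Both mutant groups lay wholly under Control, and the Hif1a/Fh1 KO arrays were tightly grouped while the Fh1 KO arrays were spread, with Fh1 KO 1 at the Hif1a/Fh1 KO level. The gene was 3.06-fold lower in Hif1a/Fh1 KO (-1.61 ± 0.17, limma adjusted p = 9.02e-05) and 2.33-fold lower in Fh1 KO (-1.22 ± 0.17, limma adjusted p = 0.00198), each with an exact permutation p of 0.029.

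Slc34a3, a sodium-phosphate carrier of the brush border, had a like pattern. Its signals were 10.33, 10.22, 10.37 and 10.21 in Hif1a/Fh1 KO, 10.16, 11.10, 10.78 and 10.84 in Fh1 KO and 11.81, 11.66, 11.57 and 12.23 in Control. Again no mutant array reached a Control array, and Fh1 KO 1 stood with the Hif1a/Fh1 KO arrays. It was 2.90-fold lower in Hif1a/Fh1 KO (-1.54 ± 0.19, limma adjusted p = 0.000266) and 2.14-fold lower in Fh1 KO (-1.10 ± 0.19, limma adjusted p = 0.00633). On the low-Xist arrays alone the Fh1 KO difference was -0.71 (limma adjusted p = 0.089). Slc5a12, which carries lactate and other monocarboxylates with sodium, read 12.27, 12.39, 12.22 and 12.66 in Hif1a/Fh1 KO, 12.60, 13.31, 12.92 and 13.23 in Fh1 KO and 13.82, 13.59, 13.48 and 14.11 in Control. It fell by 1.37 ± 0.17 in Hif1a/Fh1 KO (limma adjusted p = 0.000357) and by 0.74 ± 0.17 in Fh1 KO (limma adjusted p = 0.0322), where the low-Xist arrays gave -0.36 (limma adjusted p = 0.44). Its dimmer probe gave -0.46 in Hif1a/Fh1 KO and -0.31 in Fh1 KO and was called in neither.

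Slc9a3 and Slc13a3 were called in Hif1a/Fh1 KO alone, and the difference between the mutant groups passed for neither. Slc9a3, the apical sodium-proton exchanger through which bicarbonate is reclaimed, read 12.23, 12.12, 11.62 and 12.11 in Hif1a/Fh1 KO, 12.26, 12.80, 12.22 and 12.13 in Fh1 KO and 12.81, 13.00, 12.69 and 12.31 in Control. The Hif1a/Fh1 KO arrays lay under Control (-0.68 ± 0.18, limma adjusted p = 0.0251). Slc13a3, a basolateral dicarboxylate carrier, read 14.24, 13.45, 13.46 and 13.31 in Hif1a/Fh1 KO, 13.80, 14.05, 13.99 and 13.94 in Fh1 KO and 14.56, 14.43, 14.46 and 13.75 in Control. Hif1a/Fh1 KO 1 and Control 4 overlapped, and the difference was -0.69 ± 0.21 (limma adjusted p = 0.0399). That call was kept in 3 of the 12 fits that each left out 1 array.

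The other 5 sodium-coupled carriers were not called in either mutant. Slc34a1, the main renal phosphate carrier, differed by -0.44 in Hif1a/Fh1 KO (limma adjusted p = 0.0511) and -0.49 in Fh1 KO (limma adjusted p = 0.0675). With the array set as a block it passed in Hif1a/Fh1 KO (limma adjusted p = 0.0243) and in Fh1 KO (limma adjusted p = 0.033), and after quantile normalization it was -0.08 in Hif1a/Fh1 KO and -0.06 in Fh1 KO. Slc5a8, a further monocarboxylate carrier, gave -0.59 in Hif1a/Fh1 KO and -0.51 in Fh1 KO. Slc4a4, the basolateral bicarbonate carrier, gave -0.43 in Hif1a/Fh1 KO and -0.28 in Fh1 KO, and for both genes the arrays of the groups overlapped. Slc5a1, the glucose carrier of the late proximal tubule, gave -0.29 in Hif1a/Fh1 KO (95% interval -0.71 to 0.12) and -0.10 in Fh1 KO (-0.51 to 0.31). The interval for Slc5a1 lies apart from that of Slc5a2 in both mutants, but the difference between the 2 genes was not tested. Slc13a1, the sulfate carrier, ranged from 9.10 to 11.08 in Hif1a/Fh1 KO and from 9.10 to 11.73 in Fh1 KO, against 10.30 to 10.78 in Control, with replicates 1 and 2 of Hif1a/Fh1 KO under the Control range and replicates 3 and 4 over it.

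**Figure D2:**
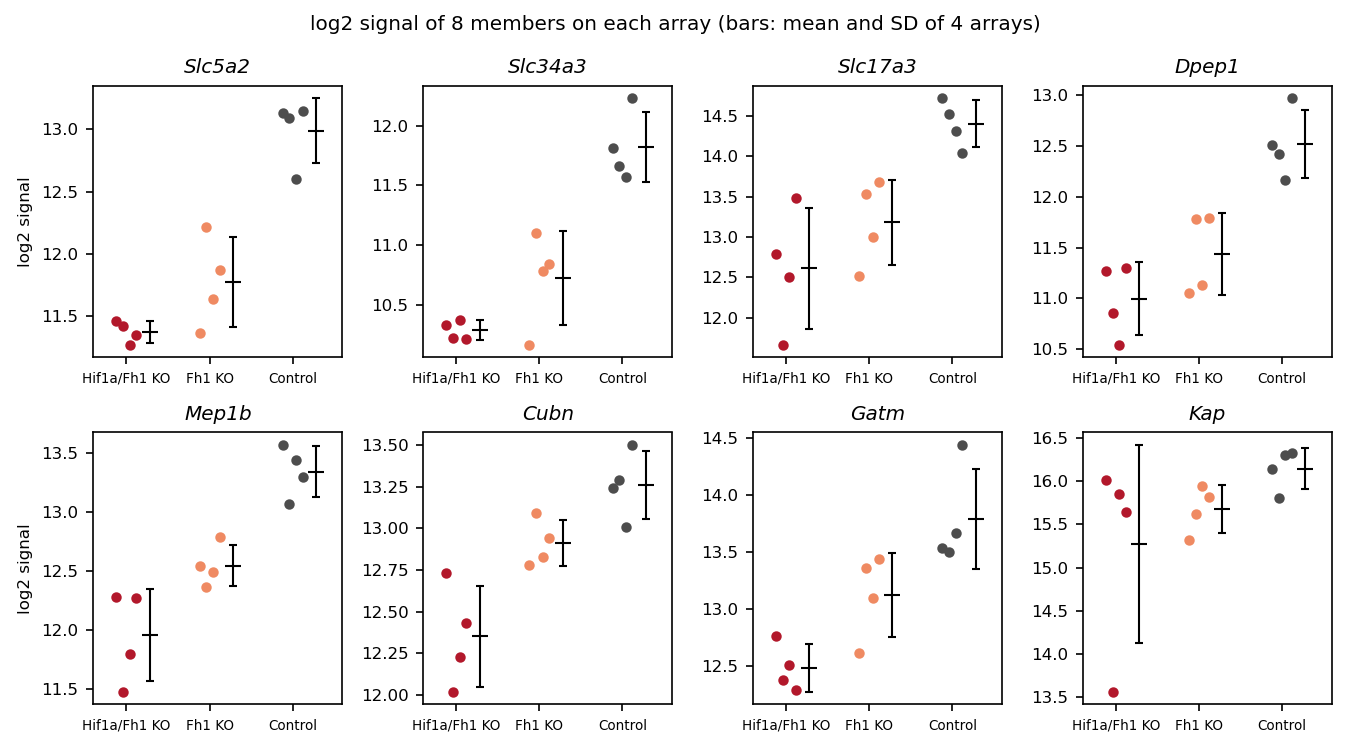
log2 signal on each array for 8 proximal tubule genes, with Hif1a/Fh1 KO, Fh1 KO and Control from left to right and bars giving mean and SD of 4 arrays. Slc5a2, Slc34a3, Slc17a3, Dpep1, Mep1b and Gatm have every mutant array below every Control array, Cubn has Hif1a/Fh1 KO below both other groups, and Kap has 1 Hif1a/Fh1 KO array at 13.56 apart from the rest.

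Among other carriers and channels, 4 of 5 were called lower in Hif1a/Fh1 KO and 1 of 5 in Fh1 KO. Slc17a3, an organic anion and urate carrier, had the largest difference of the whole set. It read 12.79, 11.66, 12.51 and 13.48 in Hif1a/Fh1 KO, 12.52, 13.53, 13.00 and 13.68 in Fh1 KO and 14.72, 14.53, 14.31 and 14.04 in Control. By this probe every mutant array was under Control, but the mutant arrays spread by over 1 log2 unit. The fall was 3.46-fold in Hif1a/Fh1 KO (-1.79 ± 0.34, limma adjusted p = 0.00408). In Fh1 KO the difference of -1.22 ± 0.34 did not pass (limma adjusted p = 0.0601). Its 2 dimmer probes were called in Hif1a/Fh1 KO, at -1.38 and -1.17, the dimmest overlapping Control. In Fh1 KO these 2 probes gave only -0.37 and -0.39, were not called and overlapped Control. The neighbouring family member Slc17a1 was dim, at 8.08 to 8.44 over the 12 arrays, and neither 0.03 in Hif1a/Fh1 KO nor -0.10 in Fh1 KO was called.

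Slc2a2 encodes the basolateral glucose carrier through which reclaimed glucose leaves the cell. It read 12.73, 12.46, 11.98 and 12.40 in Hif1a/Fh1 KO, 12.32, 13.13, 12.36 and 12.63 in Fh1 KO and 13.38, 13.27, 12.86 and 13.07 in Control, with Hif1a/Fh1 KO wholly under Control (-0.75 ± 0.20, limma adjusted p = 0.0212). Aqp1, the water channel of the proximal tubule and thin limb, read 15.60, 15.45, 15.37 and 15.59 in Hif1a/Fh1 KO, 15.43, 15.50, 15.43 and 15.46 in Fh1 KO and 15.81, 15.66, 15.77 and 16.03 in Control. It was called lower in Hif1a/Fh1 KO (-0.31 ± 0.09, limma adjusted p = 0.0317) and in Fh1 KO (-0.36 ± 0.09, limma adjusted p = 0.0382). Its 2 dimmer probes did not follow, with -0.07 and -0.02 in Hif1a/Fh1 KO and -0.13 and 0.01 in Fh1 KO, none of them called. After quantile normalization Aqp1 was -0.06 in Hif1a/Fh1 KO and -0.02 in Fh1 KO, and on the low-Xist arrays -0.15 in Hif1a/Fh1 KO and -0.27 in Fh1 KO, none of these called. Slc27a2, a fatty acid carrier and acyl-CoA synthetase, gave -0.37 in Hif1a/Fh1 KO (limma adjusted p = 0.0489) and -0.40 in Fh1 KO (limma adjusted p = 0.0723), but -0.03 in Hif1a/Fh1 KO and 0.04 in Fh1 KO after quantile normalization.

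Amino acid carriers had a median of -0.70 in Hif1a/Fh1 KO, with 2 of 5 called lower, and of -0.37 in Fh1 KO, with 0 of 5 called by limma, where 1 had an unadjusted p under 0.05. The called genes were Slc7a8, a basolateral exchanger (-0.70, limma adjusted p = 0.0425), and Slc7a9, the light chain of the cystine carrier (-0.67, limma adjusted p = 0.0463). Slc7a7, the basolateral exchanger for cationic amino acids, gave -0.74 in Hif1a/Fh1 KO (limma adjusted p = 0.0513, and 0.0442 with the array set as a block). Slc6a19, the main apical carrier of neutral amino acids, ranged from 11.38 to 13.09 in Hif1a/Fh1 KO and from 12.49 to 13.66 in Fh1 KO, against 12.80 to 13.53 in Control, and its difference of -0.86 in Hif1a/Fh1 KO had a limma adjusted p of 0.113, and of 0.0369 with the array set as a block. Slc6a18, a second neutral amino acid carrier, gave -0.29 in Hif1a/Fh1 KO and -0.10 in Fh1 KO. By the brightest probe, no amino acid carrier separated the arrays of a mutant group from Control, whereas dimmer probes of Slc7a7, Slc7a8 and Slc7a9 did so in Hif1a/Fh1 KO, and that of Slc7a8 in Fh1 KO.

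Of the 5 metabolic enzymes 4 were called lower in Hif1a/Fh1 KO and 1 in Fh1 KO. Gatm encodes the first enzyme of creatine synthesis and had the largest fall of the class in Hif1a/Fh1 KO. It read 12.77, 12.38, 12.51 and 12.29 in Hif1a/Fh1 KO, 12.62, 13.36, 13.10 and 13.44 in Fh1 KO and 13.54, 13.50, 13.67 and 14.44 in Control. Neither mutant group overlapped Control, and Fh1 KO 1 again lay among the Hif1a/Fh1 KO values. The gene was 2.47-fold lower in Hif1a/Fh1 KO (-1.30 ± 0.22, limma adjusted p = 0.00204), and its difference in Fh1 KO was -0.66 ± 0.22 (limma adjusted p = 0.102) and -0.18 on the low-Xist arrays.

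Fbp1 and Pck1 serve gluconeogenesis, as fructose-bisphosphatase and the cytosolic carboxykinase. Fbp1 read 14.56, 14.19, 14.36 and 14.35 in Hif1a/Fh1 KO, 14.26, 14.74, 14.31 and 14.65 in Fh1 KO and 15.06, 14.90, 15.06 and 15.00 in Control. Both mutant groups lay under Control, by -0.64 ± 0.12 in Hif1a/Fh1 KO (limma adjusted p = 0.00359) and -0.52 ± 0.12 in Fh1 KO (limma adjusted p = 0.0286). Pck1 read 13.97, 13.85, 13.68 and 13.99 in Hif1a/Fh1 KO, 14.25, 14.61, 14.32 and 13.54 in Fh1 KO and 14.51, 14.68, 14.30 and 14.79 in Control. It was called in Hif1a/Fh1 KO (-0.70 ± 0.19, limma adjusted p = 0.0266), and Fh1 KO overlapped Control. G6pc, whose product releases free glucose at the end of the pathway, ranged from 14.15 to 15.33 in Hif1a/Fh1 KO and from 14.06 to 15.28 in Fh1 KO, against 15.07 to 15.53 in Control, and was not called at -0.46 in Hif1a/Fh1 KO and -0.67 in Fh1 KO. Miox, the first enzyme of inositol breakdown, read 15.83, 15.43, 15.76 and 15.59 in Hif1a/Fh1 KO, 15.40, 15.58, 15.93 and 15.89 in Fh1 KO and 16.07, 15.91, 16.28 and 16.37 in Control. It was called in Hif1a/Fh1 KO (-0.51 ± 0.14, limma adjusted p = 0.0295).

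Brush border enzymes had the lowest median of the 7 classes, -1.14 in Hif1a/Fh1 KO with 4 of 4 called, and -0.67 in Fh1 KO with 2 of 4 called. Dpep1, a membrane dipeptidase, read 11.27, 10.86, 10.54 and 11.30 in Hif1a/Fh1 KO, 11.05, 11.78, 11.13 and 11.79 in Fh1 KO and 12.51, 12.42, 12.17 and 12.97 in Control. No mutant array reached Control, with -1.52 ± 0.23 in Hif1a/Fh1 KO (limma adjusted p = 0.001) and -1.08 ± 0.23 in Fh1 KO (limma adjusted p = 0.0206). On the low-Xist arrays the difference was -1.08 in Hif1a/Fh1 KO (limma adjusted p = 0.00535) and -0.58 in Fh1 KO (limma adjusted p = 0.13). Mep1b encodes the beta subunit of the metalloprotease meprin. It read 12.28, 11.48, 11.80 and 12.27 in Hif1a/Fh1 KO, 12.54, 12.37, 12.49 and 12.79 in Fh1 KO and 13.57, 13.07, 13.44 and 13.30 in Control, so that the 3 groups stood in order without overlap. It fell by 1.38 ± 0.18 in Hif1a/Fh1 KO (limma adjusted p = 0.000357) and by 0.80 ± 0.18 in Fh1 KO (limma adjusted p = 0.0246). On its 2 dimmer probes every mutant array also lay under Control, but the mutant groups overlapped, with Hif1a/Fh1 KO 4 at 11.64 and 11.34.

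Its partner subunit Mep1a read 14.96, 14.44, 14.18 and 14.81 in Hif1a/Fh1 KO, 14.62, 15.26, 14.33 and 15.15 in Fh1 KO and 15.55, 15.46, 15.36 and 15.16 in Control. It was called in Hif1a/Fh1 KO (-0.78 ± 0.21, limma adjusted p = 0.0253), and in Fh1 KO the difference was -0.54 ± 0.21 (limma adjusted p = 0.157). Anpep, an aminopeptidase, read 10.90, 10.59, 10.48 and 10.57 in Hif1a/Fh1 KO, 10.72, 10.97, 10.79 and 11.45 in Fh1 KO and 11.75, 11.28, 11.81 and 11.29 in Control. The Hif1a/Fh1 KO arrays lay under Control (-0.90 ± 0.18, limma adjusted p = 0.00538), while Fh1 KO 4 reached into it.

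In the last class, Hnf4a is a nuclear receptor known to control many proximal tubule genes, and its own promoter window holds the Hnf1 half-site. It read 14.25, 13.92, 13.41 and 13.60 in Hif1a/Fh1 KO, 14.12, 14.36, 13.90 and 14.22 in Fh1 KO and 14.71, 14.78, 14.49 and 14.17 in Control. Control 4 fell within the range of both mutants. Hnf4a was called lower in Hif1a/Fh1 KO (-0.74 ± 0.18, limma adjusted p = 0.0169), and in Fh1 KO the difference of -0.38 ± 0.18 did not pass (limma adjusted p = 0.249). Kap is an androgen-dependent gene of the mouse proximal tubule. It read 16.02, 13.56, 15.85 and 15.65 in Hif1a/Fh1 KO, 15.32, 15.62, 15.95 and 15.82 in Fh1 KO and 16.14, 15.81, 16.30 and 16.33 in Control. A single array, Hif1a/Fh1 KO 2, stood far under the others. Kap was called in neither mutant, with -0.87 ± 0.42 in Hif1a/Fh1 KO and -0.47 ± 0.42 in Fh1 KO. Napsa, an aspartic protease, and Keg1, a glycine acyltransferase-like gene, were called in Hif1a/Fh1 KO at -0.43 and -0.49 (limma adjusted p = 0.0412 and 0.0425), and gave -0.42 and -0.47 in Fh1 KO without passing. After quantile normalization Napsa was -0.04 and Keg1 -0.12 in Hif1a/Fh1 KO, and neither was called.

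**Figure D3:**
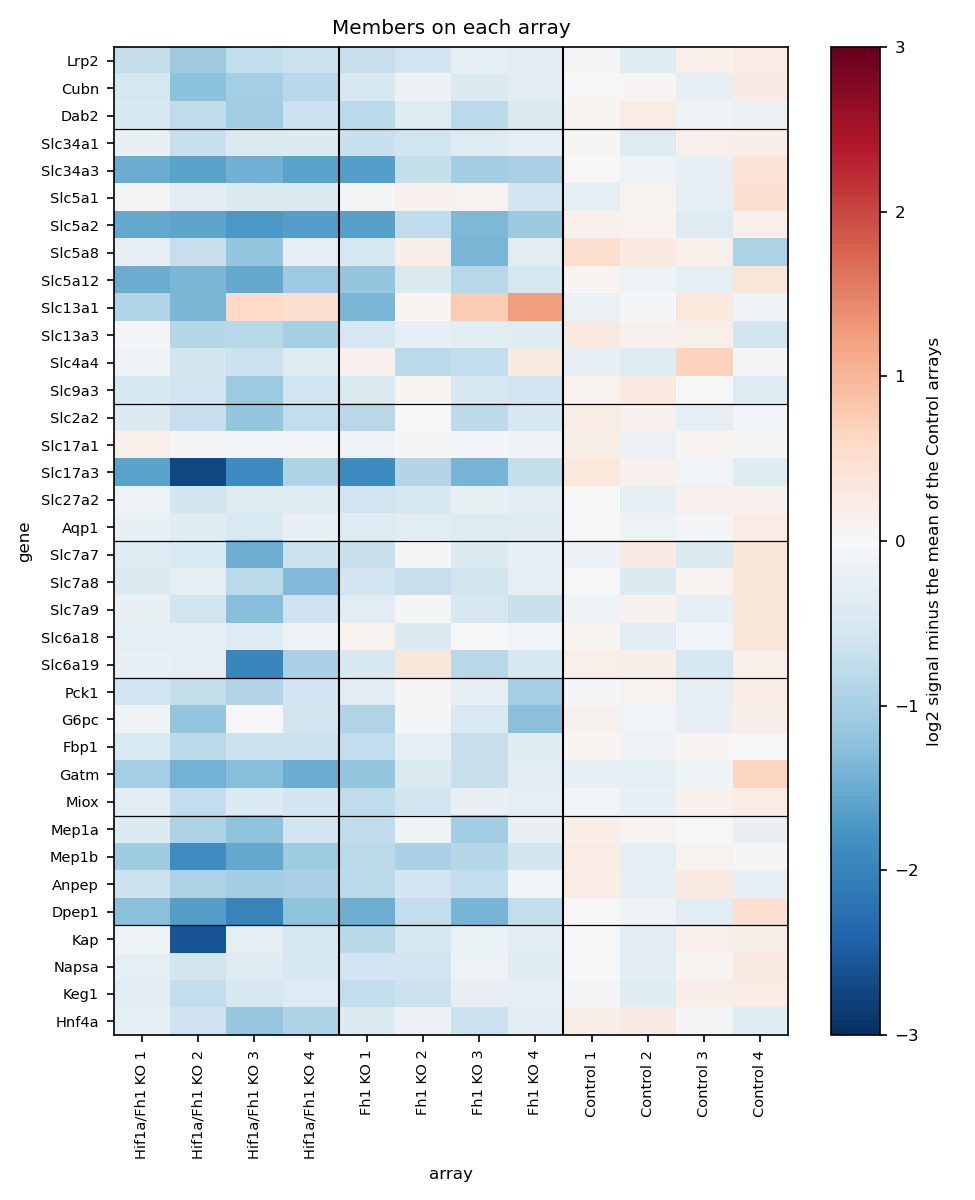
log2 signal of each measured proximal tubule gene (rows, classes parted by lines) on each array (columns), minus the mean of the 4 Control arrays. Blue is lower than that mean and red is higher; the Hif1a/Fh1 KO columns on the left are blue for nearly all genes, with array medians of -0.41 to -0.96, the Fh1 KO columns less so, at -0.36 to -0.68.

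Arrays of 1 group differed in how far the whole set was lowered. The median deviation of the 36 genes from the Control mean was -0.41, -0.74, -0.96 and -0.63 on the Hif1a/Fh1 KO arrays, -0.68, -0.40, -0.48 and -0.36 on the Fh1 KO arrays and 0.02, -0.10, -0.04 and 0.19 on the Control arrays. Hif1a/Fh1 KO 1 and Fh1 KO 1 therefore stood in the reverse of the order of their groups, while every mutant array was lower than every Control array. Each mutant array had 30 to 35 of the 36 genes under the Control mean, against 14 to 21 on the Control arrays. In both mutant groups the 2 lowest medians were those of the arrays with high Xist, while Control 4, the Control array with high Xist, had the highest Control median. With Xist as a covariate 23 genes were called in Hif1a/Fh1 KO, against 9.59% of all genes lower, and 10 in Fh1 KO, against 3.37%. The array medians are a description and carry no test.

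Between the mutants, 0 of 36 genes were called in Hif1a/Fh1 KO against Fh1 KO by limma, in either direction, and 7 had an unadjusted p under 0.05, all lower. Over all genes 0.081% were called lower and 0.186% higher in this comparison. The median difference was -0.30 over the set and 0.01 over all genes, and 31 of 36 genes were below 0. By the brightest probe, the 2 genes whose Hif1a/Fh1 KO arrays lay wholly under the Fh1 KO arrays, against 2.09% of all genes, were Cubn (-0.56, 95% interval -0.88 to -0.23, limma adjusted p = 0.19) and Mep1b (-0.59, 95% interval -0.97 to -0.20, limma adjusted p = 0.26). On the 2 dimmer Mep1b probes the mutants overlapped, at -0.73 and -0.60. A dimmer Slc17a3 probe did not overlap, at -1.01 (limma adjusted p = 0.202). The lowest difference was that of Gatm (-0.64, 95% interval -1.12 to -0.16). For Dab2 the interval ran from -0.43 to 0.19 and for Slc34a1 from -0.25 to 0.35. The larger count of calls in Hif1a/Fh1 KO than in Fh1 KO is thus not shown to be a difference between the mutants for any single gene.

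Differences were also set out by signal strength. The 8 members with a mean above 15, Lrp2, Slc34a1, Slc27a2, Aqp1, Miox, Kap, Napsa and Keg1, averaged 0.05 to 0.48 under the 99.9th percentile of each array, near the top of its range. Their median difference was -0.47 in Hif1a/Fh1 KO and -0.46 in Fh1 KO. The 199 other genes above 15 also sat below 0, with a median of -0.31 and 29.6% called lower in Hif1a/Fh1 KO, and a median of -0.33 and 9.55% called lower in Fh1 KO. After quantile normalization the bright members had a median of -0.10 in Hif1a/Fh1 KO, with 1 of 8 called where 6 had been, and of -0.06 in Fh1 KO, with 0 of 8 called where 1 had been. The 199 other genes then had medians of -0.03 in Hif1a/Fh1 KO and -0.01 in Fh1 KO, with 12.6% and 2.01% called lower. The part of the top of the scale in the differences of the bright members cannot be told apart from a change of the transcripts.

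Dimmer members changed less with the scaling. The 7 with means of 14 to 15 had a median of -0.70 in Hif1a/Fh1 KO, with 5 called, and of -0.55 after quantile normalization, with 3 called. In Fh1 KO these 7 had -0.52, with 2 called, and -0.36 after it, with 1 called. Of the 347 other genes in that range 23.9% were called lower in Hif1a/Fh1 KO and 5.76% in Fh1 KO. After quantile normalization these shares were 13.5% and 2.31%. The 15 with means of 12 to 14 had a median of -0.75 in Hif1a/Fh1 KO, with 11 called, and -0.69 after quantile normalization, with 8 called. The 1929 other genes in that range had a median of -0.07, with 14.8% called lower, and 11% after quantile normalization. In Fh1 KO the 15 members had a median of -0.51, and of -0.38 after quantile normalization, with 3 called under each. Of the other genes in that range 3.42% were called lower in Fh1 KO, and 1.92% after quantile normalization. The 5 members at 10 to 12 gave a median of -0.90 in Hif1a/Fh1 KO under both scalings, with 3 called, and of -0.55 in Fh1 KO under both, with 2 called. Of the 3651 other genes at 10 to 12, 9.18% were called lower in Hif1a/Fh1 KO and 2.25% in Fh1 KO. After quantile normalization these shares were 9.12% and 2.14%. Quantile normalization lowered the counts over the set to 15 in Hif1a/Fh1 KO, against 7.4% of all genes, and 6 in Fh1 KO, against 1.73% of all genes. The calls lost with it were Slc13a3, Slc27a2, Aqp1, Slc7a8, Slc7a9, Pck1, Miox, Mep1a, Napsa and Keg1 in Hif1a/Fh1 KO, and Aqp1 and Fbp1 in Fh1 KO. Dimmer probes were present for 17 of the members, 26 probes in all. Of these, 16 were called lower in Hif1a/Fh1 KO, where all 26 were below 0, and 2 in Fh1 KO, where 25 were below 0, and 0 were called higher by limma in either.

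**Figure D4:**
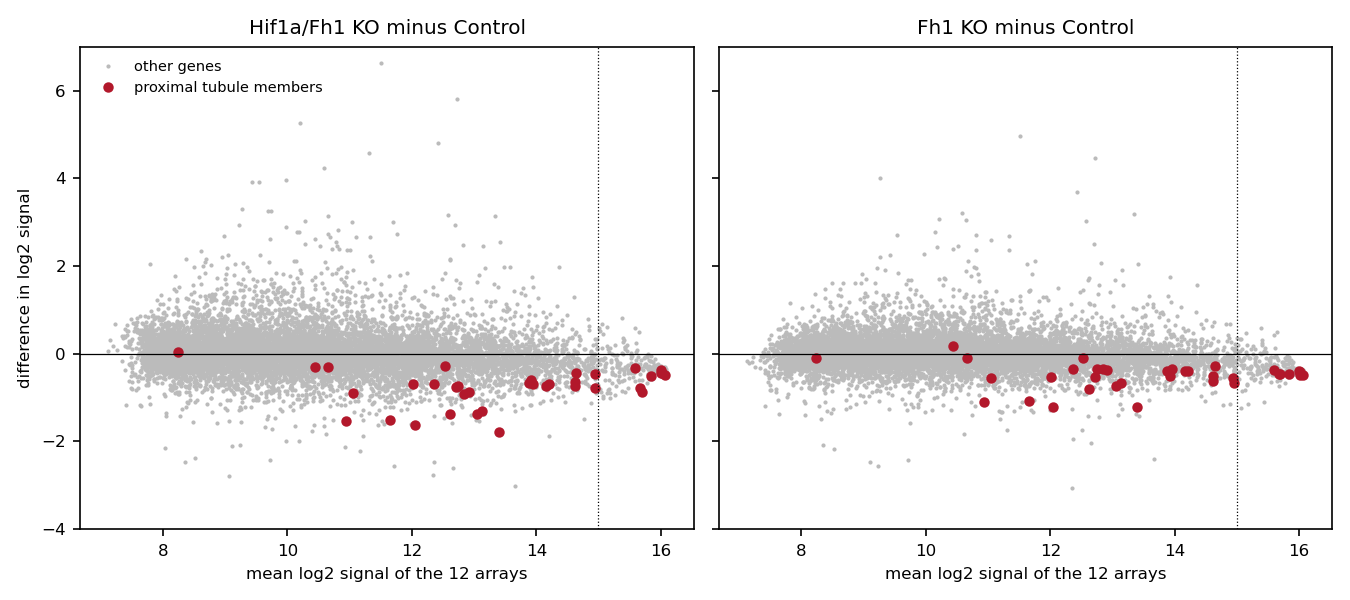
Difference in log2 signal from Control against the mean log2 signal of the 12 arrays, for Hif1a/Fh1 KO (left) and Fh1 KO (right), with 1 point per gene; proximal tubule genes are red and the others grey. Right of the dotted line at 15 the grey points sit below 0 too, at a median of -0.31 on the left and -0.33 on the right, while most red points between 10 and 14 lie under most grey points of like signal.

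The set median had the same direction within the array sets. Within replicates 1 and 2 the 36 genes had a median of -0.68 in Hif1a/Fh1 KO, with 14 called by limma, against 6.25% of all genes, and 20 lower at an unadjusted p under 0.05. In Fh1 KO it was -0.49, with 0 called, against 0.348% of all genes, and 15 lower unadjusted. Within replicates 3 and 4 the median was -0.74 in Hif1a/Fh1 KO, with 7 called, against 0.51% of all genes, and 28 lower unadjusted. In Fh1 KO it was -0.48, with 0 called, against 0.13% of all genes, and 18 lower unadjusted. With the array set as a block over all arrays, 28 were called in Hif1a/Fh1 KO, against 11.1% of all genes, and 14 in Fh1 KO, against 3.86% of all genes. The block added Slc34a1, Slc7a7 and Slc6a19 in Hif1a/Fh1 KO, and Lrp2, Slc34a1, Slc27a2, Miox, Napsa and Keg1 in Fh1 KO, and no call was lost with it.

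On the arrays with low Xist the median was -0.56 in Hif1a/Fh1 KO, with 10 called, against 2.76% of all genes, and 20 lower unadjusted. In Fh1 KO it was -0.36, with 0 called, against 0.113% of all genes, and 13 lower unadjusted. Of the called genes, Slc34a3, Slc5a12, Fbp1 and Dpep1 in Fh1 KO and Cubn, Slc27a2, Aqp1, Slc7a9 and Keg1 in Hif1a/Fh1 KO had differences over 1.5 times smaller there. In each of the 3 subsets 35 of 36 genes were below 0 in both comparisons. Kap read 13.56 and 15.85 on the Hif1a/Fh1 KO arrays with high Xist and 16.02 and 15.65 on those with low Xist, and its relation to Xist was not tested.

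Further genes of the proximal tubule, from lists outside the 36, were mostly below 0, 49 of 55 in Hif1a/Fh1 KO and 44 of 55 in Fh1 KO. Over all genes 8.64% were called lower in Hif1a/Fh1 KO and 2.26% in Fh1 KO. Of the 55 measured, 24 were called lower in Hif1a/Fh1 KO (median -0.54) and 6 in Fh1 KO (median -0.26), with 0 called higher by limma in either and 1 higher at an unadjusted p under 0.05, in Hif1a/Fh1 KO. Among 17 carriers and scaffold proteins 7 were called lower in Hif1a/Fh1 KO and 2 in Fh1 KO. The called genes in Hif1a/Fh1 KO were led by Car4, a membrane carbonic anhydrase (-1.39 ± 0.27), Slc16a4 (-1.01 ± 0.21) and Slc26a1, a sulfate exchanger (-0.99 ± 0.29). The lowest difference of this list there, -2.57, was that of a gene not called. Amn, the anchor of cubilin, was called in both mutants, at -0.83 in Hif1a/Fh1 KO and -0.77 in Fh1 KO, as was Pdzk1, a scaffold of apical carriers, at -0.57 in Hif1a/Fh1 KO and -0.53 in Fh1 KO. Among 19 metabolic genes 9 were called lower in Hif1a/Fh1 KO and 1 in Fh1 KO. Dao, a D-amino acid oxidase, fell by 0.96 ± 0.30 in Hif1a/Fh1 KO and by 1.37 ± 0.30 in Fh1 KO. Acy1, an aminoacylase, and Ass1, which makes argininosuccinate, were called in Hif1a/Fh1 KO alone, at -0.91 and -0.81.

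Among 13 further brush border genes 6 were called lower in Hif1a/Fh1 KO, against 8.64% of all genes, and 2 in Fh1 KO, against 2.26%. Vil1, the microvillar actin bundler, gave -0.89 ± 0.23 in Hif1a/Fh1 KO, and Mme, the membrane protease neprilysin, gave -0.61 ± 0.14 there and 0.01 ± 0.14 in Fh1 KO. Cltrn, an apical trafficking protein of amino acid carriers, was called in both (-0.60 in each). Of 6 transcriptional regulators, Ppara, which drives fatty acid oxidation, was called lower in both mutants, at -0.81 in Hif1a/Fh1 KO and -0.58 in Fh1 KO, and Esrra, a regulator of mitochondrial genes, in Hif1a/Fh1 KO (-0.41).

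Markers of other cells and states moved in the same samples, and their part in the results above was not tested. Over all genes 10.7% were called higher in Hif1a/Fh1 KO and 3.9% in Fh1 KO. Of 12 tubular injury genes 11 were called higher in Hif1a/Fh1 KO and 7 in Fh1 KO, and their mean signal was 11.29 to 11.39 on the Hif1a/Fh1 KO arrays, 10.30 to 11.12 on the Fh1 KO arrays and 9.32 to 9.56 on the Control arrays. Lcn2, a secreted product of damaged tubule, rose by 5.80 in Hif1a/Fh1 KO and by 4.48 in Fh1 KO. Of 12 macrophage genes 9 were called higher in Hif1a/Fh1 KO and 6 in Fh1 KO, with a mean signal of 10.22 to 10.45 in Hif1a/Fh1 KO, 9.94 to 10.86 in Fh1 KO and 9.35 to 10.02 in Control. In Hif1a/Fh1 KO 1 of the 12 went the other way, at -2.78, with an unadjusted p under 0.05 by limma, and was not called. Of 10 matrix and fibroblast genes 4 were called higher in each mutant, with a mean signal of 10.22 to 10.75 in Hif1a/Fh1 KO, 10.17 to 10.50 in Fh1 KO and 9.46 to 10.03 in Control. Every mutant array was thus above every Control array for the injury and matrix lists, and for the macrophage list Fh1 KO overlapped Control.

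Other nephron segments moved as well. Over all genes 8.64% were called lower and 10.7% higher in Hif1a/Fh1 KO, and 2.26% lower and 3.9% higher in Fh1 KO. Of 7 thick limb genes 4 were called lower in Hif1a/Fh1 KO and 2 in Fh1 KO, with a mean signal of 13.19 to 13.46 in Hif1a/Fh1 KO, 13.53 to 13.79 in Fh1 KO and 13.95 to 14.27 in Control. Egf, a growth factor of the thick limb and distal tubule, fell by 3.02 in Hif1a/Fh1 KO and by 2.39 in Fh1 KO, while the median of the 7 genes was -0.58 in Hif1a/Fh1 KO and -0.10 in Fh1 KO. By array, the median deviation of the 7 from the Control mean was -0.51 to -0.40 in Hif1a/Fh1 KO. In Fh1 KO it was -0.19 to 0.21, overlapping the -0.12 to 0.20 of Control. Of 4 distal convoluted tubule genes 4 were called lower in Hif1a/Fh1 KO and 3 in Fh1 KO, at 11.15 to 11.69 in Hif1a/Fh1 KO, 11.39 to 11.74 in Fh1 KO and 12.77 to 12.99 in Control. Of 10 collecting duct genes 6 were called higher and 2 lower in Hif1a/Fh1 KO, and 3 higher and 1 lower in Fh1 KO. Their mean signal was 11.43 to 11.73 in Hif1a/Fh1 KO, 11.13 to 11.46 in Fh1 KO and 10.89 to 10.96 in Control. Of 4 podocyte genes 2 were called lower in Hif1a/Fh1 KO and 0 in Fh1 KO by limma, where 0 had an unadjusted p under 0.05. Of 6 endothelial genes 1 was lower in Hif1a/Fh1 KO and 1 higher in Fh1 KO.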

How the data were processed

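Total RNA was labelled with biotin and hybridised to Illumina MouseWG-6 v2 arrays, 4 per genotype. The authors read the arrays in GenomeStudio, shifted them to the 75th percentile and set the median of all samples as baseline in GeneSpring GX, and deposited 1 log2 signal per probe and array. The deposited log2 values (6.40 to 16.6) are not centred, and how the 23863 probes were chosen is not given in the sources used here. A second table of signals and detection p-values was not used, since its 24 columns match no sample, so signal over background is unknown. Each array was shifted by at most 0.04 to a common 75th percentile. Symbols came from the platform annotation: 19906 probes had 1 symbol, 9 had several and 3948 had none.

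The 3 groups were fitted in 1 model with limma 3.58.1 in R 4.3.3 (eBayes with a trend), after a check on simulated data. Values on every array are given for the 20 members of smallest adjusted p, with Kap and Hnf4a, and up to 3 called genes of each other list are named. Fh1, Hif1a, Amn and Pdzk1 fall outside that rule, the last 2 named after their values were seen. The members and lists were chosen with earlier results of these data known. Same-numbered arrays did not all deviate together (correlations of -0.31 to 0.50, over 0.1 in 6 of 12 pairs), so the numbers were not taken to pair them. Alternatives were other scalings and tests, blocks, probe choices and leaving out each array; subsets by array set and Xist were added after the data were seen.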

Additional observations from a re-analysis of the deposited data

Results flagged for a closer look

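Of the 108 groups of 4 arrays, 36 genes in 3 groups, 5 held an array whose gap to the next was over Dixon's 95% critical share of the group's range, a mark that chance passes in about 1 group in 20. Slc13a3 had a high array in Hif1a/Fh1 KO 1, at 14.24 against 13.31 to 13.46 on the other Hif1a/Fh1 KO arrays, and a low one in Control 4, at 13.75 against 14.43 to 14.56 on the other Control arrays. Kap read 13.56 on Hif1a/Fh1 KO 2 and 15.65 to 16.02 on the other arrays of that group. In Control 3, Slc5a2 read 12.60, under the 13.09 to 13.15 of the other Control arrays, and Slc6a19 read 12.80, under their 13.49 to 13.53. The low Slc5a2 value still lay above every mutant array.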

How the results depend on the processing

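The set median kept its direction in every alternative run, and no called gene changed sign. The median difference of the 36 genes from Control lay between -0.81 and -0.56 in Hif1a/Fh1 KO, and in Fh1 KO between -0.52 and -0.36 except under quantile normalization, at -0.27. Calls depended more on the setting. In Hif1a/Fh1 KO, 25 genes were called (8.64% of all genes lower), against 15 after quantile normalization (7.4%), 14 by a plain test without moderation (6.92%), 12 at an adjusted p under 0.01 (2.97%), 28 with the array set as a block (11.1%), 14 in replicates 1 and 2 alone (6.25%), 7 in replicates 3 and 4 alone (0.51%) and 10 on the low-Xist arrays (2.76%). When single arrays were left out, 12 to 27 were called, beside 576 to 1144 of the 12344 genes called lower. In Fh1 KO, 8 were called (2.26% of all genes lower), against 3 by the plain test (1.51%) and 13 with array weights (7.91%). With the array set as a block 14 were called (3.86%), and 2 at an adjusted p under 0.01 (0.316%). In replicates 1 and 2 (0.348%), in replicates 3 and 4 (0.13%) and on the low-Xist arrays (0.113%), 0 were called. With the second brightest probe 5 were called, and no share over all genes was computed for that setting. Of these, Slc34a3, Slc5a2, Fbp1 and Dpep1 have 1 probe and were read on it again, and Napsa was newly called. Dab2, Slc5a12, Aqp1 and Mep1b, the called genes with a further probe, lost their calls. When single arrays were left out, 2 to 11 were called in Fh1 KO, beside 70 to 337 of the 12344 genes called lower. The subsets hold fewer arrays, and otherwise the cause was not tested. The replicate number, which did not pair the arrays, gave 27 calls in Hif1a/Fh1 KO (9.48%) and 11 in Fh1 KO (2.71%) as a replicate block. In Hif1a/Fh1 KO against Fh1 KO, 0 were called under every alternative. Calls kept in all 12 left-out fits and all 14 other planned settings were Slc5a2 and Slc34a3 in Fh1 KO, and in Hif1a/Fh1 KO these with Lrp2, Cubn, Dab2, Slc17a3, Fbp1, Gatm, Mep1b, Anpep and Dpep1. Among these settings, the second brightest probe could not change the call of a gene with 1 probe. That holds for Slc5a2, Slc34a3, Cubn, Fbp1, Gatm, Anpep and Dpep1. Slc5a12 in Hif1a/Fh1 KO lost its call in that setting only. With 4 arrays a group and no detection values, small differences and those of probes near the top of the scale are poorly resolved.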
